A study of Homo sapiens with 12 samples.

Results

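The genes described are 10 that set how cells take up, store, release and sense iron, with the inducible heme oxygenase: TFRC, SLC11A2, SLC11A1, FTL, FTH1, NCOA4, SLC40A1, HMOX1, ACO1 and IREB2. The rule lists them by name and uses no measured value, but it was set with earlier results of these data known. Each was found as 1 row, matched by Ensembl identifier, among 61487 gene rows in the count table, and 9 of the 10 passed the filter on low counts that 16104 genes passed in all. SLC40A1 had no count in any library and was not tested.

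The cells were MOLM14, a human acute myeloid leukemia line of monocytic character. All 12 libraries came from cells carrying shRIP140, a short hairpin RNA that doxycycline switches on and that targets RIP140, a coregulator of nuclear receptors (gene NRIP1). The 4 groups held 3 libraries each, labelled as biological replicates: 48 h of 1 µM all-trans retinoic acid (ATRA) together with doxycycline (50 ng/mL, renewed on alternate days), called combined here, ATRA without doxycycline, doxycycline without ATRA (DOX), and untreated cells. The samples hold 1 cell line and 1 hairpin name, and no group with doxycycline and a hairpin against another target, so doxycycline itself and loss of RIP140 cannot be told apart. NRIP1 was lower in every library given doxycycline than in every library without it, with group means of 18.9 ± 2.66 CPM in combined cells, 43.8 ± 7.10 CPM in ATRA cells, 16.6 ± 2.24 CPM in DOX cells and 57.3 ± 3.51 CPM in untreated cells (SD, n = 3). Levels are CPM, a gene's counts as parts per 1000000 of the library, scaled between libraries by the TMM method.

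Iron reaches most cells bound to transferrin through the transferrin receptor, leaves endosomes through a divalent metal transporter, and is stored in ferritin, a shell of heavy and light chains. In iron-poor cells the iron regulatory proteins encoded by ACO1 and IREB2 bind a hairpin in mRNA, the iron-responsive element. Bound near the start of ferritin or ferroportin mRNA it blocks translation, and bound in the 3′ UTR of the transferrin receptor mRNA it protects the message from decay. Myeloid cells are known for recycling iron from red cells and for withholding it from microbes, and heme oxygenase frees iron from heme. RNA levels therefore report one layer of this system, and ferritin protein was not measured here.

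The hairpin sequences are shown for those of the 10 mRNAs that matched a strict letter pattern of this element. A pattern of C, any 5 bases and the loop CAGTGN, with the 5 bases on each side of the loop able to pair (G with T allowed), was searched in the sense strand of all GENCODE release 29 transcripts (GRCh38). It was found in 4 of the 10 genes and in 594 of 58676 genes, or 1.01%, so the match is a description of letters and not a measured binding site. In capitals is the 6-base loop, and each window spans 30 bases, 5′ to 3′ on the strand of the gene.
FTH1, 5′ UTR, chr11:61967573-61967602, minus strand: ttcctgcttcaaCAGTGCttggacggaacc
FTL, 5′ UTR, chr19:48965335-48965364, plus strand: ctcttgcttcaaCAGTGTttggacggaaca
SLC40A1, 5′ UTR, chr2:189580660-189580689, minus strand: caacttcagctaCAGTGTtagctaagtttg
TFRC, 3′ UTR, chr3:196050978-196051007, minus strand: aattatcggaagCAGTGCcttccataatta
TFRC, 3′ UTR, chr3:196050574-196050603, minus strand: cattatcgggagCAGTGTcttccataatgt
TFRC, 3′ UTR, chr3:196050509-196050538, minus strand: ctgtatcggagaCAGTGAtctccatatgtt
TFRC, 3′ UTR, chr3:196050462-196050491, minus strand: aattatcgggaaCAGTGTttcccataattt
TFRC alone among the 10 genes held several windows, 4 in all, close together in its 3′ UTR. The window lay in 10 of 12 annotated FTH1 transcripts, in the single FTL transcript, in 3 of 7 of SLC40A1 and in 3 of 15 of TFRC. The other 6 genes held no match to these letters, which does not show that they lack such an element.

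Library totals, in multiples of 1000000 counts, were 9.45 to 16.07 for combined, 9.51 to 15.49 for ATRA, 2.69 to 19.36 for DOX and 10.37 to 18.07 for untreated libraries. DOX replicate 3 was the shallowest library. Mitochondrial ribosomal RNA (MT-RNR1 and MT-RNR2) took 1.23 to 2.02% of counts in combined, 2.09 to 2.74% in ATRA, 1.02 to 2.18% in DOX and 2.54 to 4.60% in untreated libraries. It was lower in every DOX library than in every untreated library. Its part in the results was not tested, although fits with that share as a covariate are given beside them. Because the share separates DOX from untreated libraries, a DOX call lost with that term does not tell the share and doxycycline apart. Of 10 myeloid markers 8 were tested, while CD14 and CD68 had too few counts. For ATRA against untreated 5 of the 8 were higher and 2 lower, where 28.9% of all tested genes were called. The summed myeloid level ran from 1133 to 1356 CPM in combined, from 1210 to 1303 in ATRA, from 1226 to 1309 in DOX and from 1084 to 1157 in untreated libraries, so that untreated lay below ATRA and DOX and overlapped combined. Among markers of other cells, HBA2, HBG1, PF4, CD3E and EPCAM had no count in any library. The lymphoid list, with 3 of 6 genes tested, summed to 11.9 to 18.2 CPM in combined, 14.7 to 19.8 in ATRA, 20.8 to 25.7 in DOX and 20.1 to 23.2 in untreated libraries, lower in every library with ATRA than in every library without it. The erythroid and megakaryocyte list, with 1 of 10 genes tested, summed to 16.8 to 19.6 CPM in combined, 14.9 to 18.9 in ATRA, 13.0 to 20.0 in DOX and 11.9 to 15.9 in untreated libraries. In the fibroblast, epithelial and hepatocyte list 2 of 7 genes were tested, KRT18 and PECAM1. COL1A1, COL1A2, EPCAM, ALB and TF were at most 0.478 CPM in any library, so the sum is nearly all KRT18 and PECAM1. It ran from 219 to 254 CPM in combined and from 174 to 187 in ATRA libraries. In DOX libraries it ran from 135 to 156 and in untreated libraries from 91.5 to 104 CPM, with no overlap between groups. The part of these markers in the results was not tested. In bulk RNA, fewer cells with a transcript and less of it per cell cannot be told apart.

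Per kilobase of exon, the levels of the 10 genes spanned a wide range. FTL averaged 1973 ± 489 CPM per kb over all libraries (SD, n = 12), FTH1 133 ± 20.9, NCOA4 67.7 ± 5.27, TFRC 21.3 ± 4.08 and IREB2 10.7 ± 1.53. Lower down stood ACO1 at 3.22 ± 0.377, SLC11A2 at 1.84 ± 0.181, HMOX1 at 0.649 ± 0.398 and SLC11A1 at 0.153 ± 0.0674. Every neighbour in this order was separated in all libraries apart from HMOX1 and SLC11A1, whose libraries overlapped. With the longest transcript as length, SLC11A2 (4.30) stood above ACO1 (3.26). The FTH1 level is uncertain because 62.4% of its exon bases lie inside exons of BEST1, a chloride channel gene on the opposite strand, and the strand setting of the counting is not given. The genes that varied most between the groups were HMOX1, with a range of group mean log2 CPM of 2.25, and SLC11A1 with 1.06, both at few counts. NCOA4, ACO1 and SLC11A2 stayed within 0.20, 0.18 and 0.16.

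**Figure D1:**
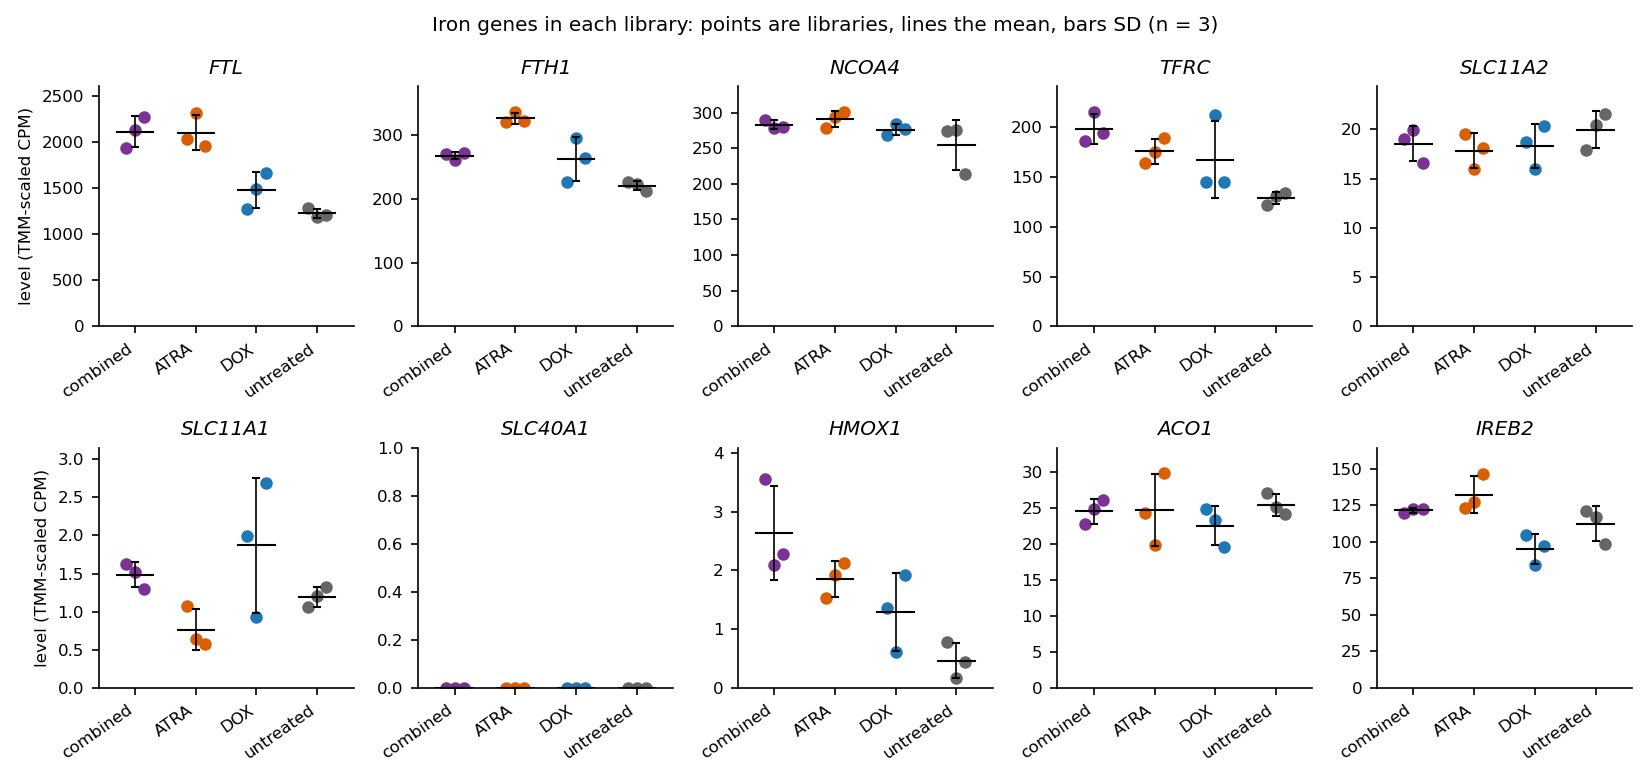
Level of each gene (vertical axis, TMM-scaled CPM, from 0) in the 12 libraries by group, with the mean as a line and the SD as a bar (n = 3). FTL libraries with ATRA, combined or alone, lie between 1942 and 2318 CPM and those without it between 1189 and 1668 CPM, and SLC40A1 is at 0 in all.

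Ferritin light chain RNA was higher wherever ATRA had been given. FTL (chr19:48965301-48966878, plus strand) encodes the ferritin subunit that helps the iron core form. It had 1942, 2131 and 2275 CPM in the combined libraries, 2033, 2318 and 1966 CPM in ATRA, 1276, 1493 and 1668 CPM in DOX, and 1283, 1189 and 1210 CPM in untreated cells. No library with ATRA overlapped any without it, and the DOX libraries reached down into the untreated range. The log2 change was 0.78 ± 0.11 for ATRA against untreated (1.72-fold, 95% interval 1.46 to 2.02; edgeR quasi-likelihood with Benjamini-Hochberg adjustment, adjusted p = 1.74e-05). It was 0.52 ± 0.11 for combined against DOX (1.43-fold, 1.22 to 1.68; edgeR adjusted p = 0.0022). Both held under all 20 alternatives tried. Combined against untreated gave 0.79 ± 0.11 (edgeR adjusted p = 1.55e-05). Errors of log2 changes are standard errors, obtained by dividing a change by the root of its F statistic.

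No difference in FTL between combined and ATRA cells was detected, and its interval was narrow. The log2 difference of combined against ATRA was 0.0070, with a 95% interval from −0.23 to 0.24 (0.855 to 1.18-fold; edgeR adjusted p = 0.986). DOX against untreated gave 0.27 ± 0.11 (edgeR adjusted p = 0.107), a value that passed with DESeq2 (adjusted p = 0.0458) and without DOX replicate 1 (0.36, edgeR adjusted p = 0.0172).

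Ferritin heavy chain RNA rose with ATRA, and was 0.82-fold in combined against ATRA cells, a difference that edgeR did not call. FTH1 (chr11:61959718-61967660, minus strand) encodes the ferroxidase subunit that oxidises iron for storage. Its level was 271, 261 and 272 CPM in combined, 321, 337 and 323 CPM in ATRA, 227, 296 and 265 CPM in DOX and 226, 224 and 213 CPM in untreated libraries. All ATRA libraries lay above all others, and the combined libraries lay between the ATRA and the untreated ones without touching either. ATRA against untreated gave 0.56 ± 0.09 (1.48-fold, 1.30 to 1.68; edgeR quasi-likelihood adjusted p = 4.28e-05), called under all 21 alternatives. Combined against untreated gave 0.28 ± 0.09 (1.21-fold, 1.07 to 1.38; edgeR adjusted p = 0.017). That call was lost with the mitochondrial ribosomal RNA term (0.11, adjusted p = 0.468), without untreated replicate 3 (0.25, adjusted p = 0.0751), and without that library and DOX replicate 3 together (0.25, adjusted p = 0.0933).

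Combined against ATRA, FTH1 was 0.82-fold (95% interval 0.722 to 0.93; log2 change −0.29 ± 0.09, edgeR adjusted p = 0.0675). The value stayed between −0.38 and −0.26 over 21 alternatives and passed the threshold in 5 of them: DESeq2 (adjusted p = 0.0354), both groups fitted alone (edgeR adjusted p = 0.0286), the mitochondrial ribosomal RNA term (0.00733), and without DOX replicate 1 (0.0234) or DOX replicate 2 (0.0316). The other adjusted p values over these alternatives reached 0.267, without combined replicate 2. The size of the ATRA effect itself, with doxycycline minus without it, differed by −0.54 ± 0.12 on the log2 scale (edgeR adjusted p = 0.0746). DESeq2 called this difference (adjusted p = 0.00857), as did edgeR without DOX replicate 1 (−0.63, adjusted p = 0.0041), and the ATRA effect under doxycycline was 0.029 ± 0.089 (edgeR adjusted p = 0.868). DOX against untreated gave 0.25 ± 0.09 for FTH1 (edgeR adjusted p = 0.0615), called by DESeq2 (adjusted p = 0.0458) and without DOX replicate 1 (0.35, edgeR adjusted p = 0.00385).

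The overlapping BEST1 gene moved with FTH1. BEST1 had 202, 204 and 212 CPM in combined, 229, 264 and 239 CPM in ATRA, 175, 234 and 194 CPM in DOX and 187, 175 and 176 CPM in untreated libraries. It held 30529 counts in all against 39577 for FTH1, and 0.712 to 0.829 counts for each FTH1 count in single libraries. Of the 1229 bases of the longest FTH1 transcript, 880 (71.6%) lie inside BEST1 exons, so how reads of this stretch were divided is not known. With both genes summed, an alternative chosen after the data were seen, FTH1 stayed called for ATRA and for combined against untreated, at log2 changes of 0.51 and 0.24. In that sum combined against ATRA gave −0.27 (edgeR adjusted p = 0.114) and the difference in ATRA effects −0.48 (edgeR adjusted p = 0.149). The 25 annotated FTH1 pseudogenes took between 0.397 and 2.06% of the reads of gene and pseudogenes together, most in untreated replicate 3, and the 16 FTL pseudogenes at most 0.195%.

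The ratio of light to heavy chain was highest in the combined libraries. Light chain counts for each heavy chain count were 7.17, 8.16 and 8.37 in combined libraries, 6.33, 6.88 and 6.09 in ATRA libraries, 5.63, 5.05 and 6.29 in DOX libraries, and 5.68, 5.31 and 5.68 in untreated libraries. The combined libraries lay above every other library, the ATRA libraries lay above the untreated ones, and DOX spanned the untreated range. A two-sided exact permutation test gave p = 0.1 for combined against ATRA, against DOX and against untreated and for ATRA against untreated, which is the smallest value 3 against 3 libraries allow, and p = 1.0 for DOX against untreated. With BEST1 added to the heavy chain the ratio was 4.11 to 4.70 in combined, 3.50 to 3.86 in ATRA, 2.82 to 3.63 in DOX and 2.98 to 3.11 in untreated libraries, with combined again above all others.

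**Figure D2:**
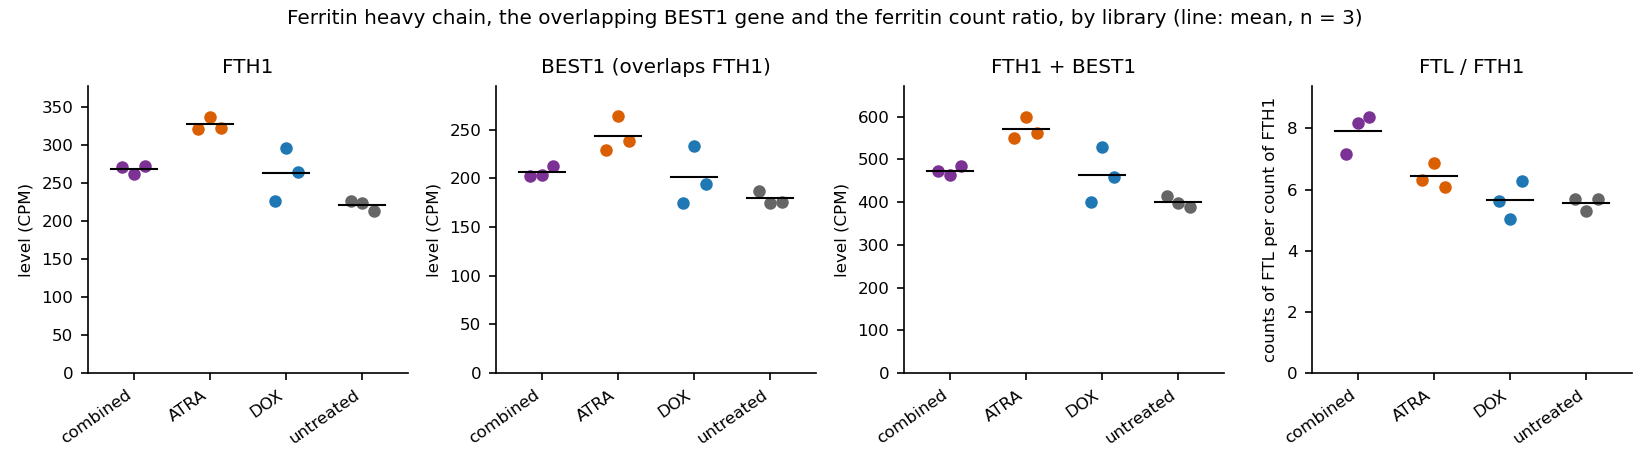
Levels of FTH1, of BEST1 and of their sum (vertical axes, CPM, from 0), and FTL counts for each FTH1 count (right), by library and group, with group means as lines (n = 3). ATRA libraries are highest for FTH1, while the FTL to FTH1 ratio is highest in the combined libraries, between 7.17 and 8.37.

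NCOA4 (chr10:46005088-46030714, minus strand), the receptor that delivers ferritin to lysosomes so that its iron is freed, varied least between groups among the 5 genes of highest level. It had 290, 279 and 279 CPM in combined, 279, 294 and 300.4 CPM in ATRA, 268, 284 and 277 CPM in DOX and 274, 276 and 214 CPM in untreated libraries. The untreated libraries lay below the ATRA and the combined ones, with untreated replicate 3 far below the rest. ATRA against untreated gave 0.19 ± 0.09 (edgeR adjusted p = 0.111), and combined against ATRA gave −0.042 with a 95% interval from −0.23 to 0.15. At equal depth the ATRA value passed the threshold (0.30, edgeR adjusted p = 0.0188).

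Transferrin receptor RNA was higher with ATRA, and highest on average with both agents. TFRC (chr3:196027183-196082189, minus strand) encodes the receptor that brings transferrin-bound iron into the cell. Its level was 187, 215 and 194 CPM in combined, 164, 175 and 189 CPM in ATRA, 145, 213 and 146 CPM in DOX and 122, 131 and 134 CPM in untreated libraries. Every treated library lay above every untreated one, and the combined and ATRA libraries overlapped. The log2 change was 0.62 ± 0.11 for combined against untreated (1.54-fold, 1.30 to 1.81; edgeR quasi-likelihood adjusted p = 0.000268) and 0.45 ± 0.11 for ATRA against untreated (1.36-fold, 1.15 to 1.61; edgeR adjusted p = 0.00569). Each held under all 20 alternatives.

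DOX against untreated also passed for TFRC, at 0.39 ± 0.12 (1.31-fold, 1.11 to 1.55; edgeR adjusted p = 0.0284), but this call was lost in 7 of 20 alternatives. Without DOX replicate 2, at 213 CPM against 145 and 146 CPM in the other DOX libraries, the value was 0.17 (edgeR adjusted p = 0.318). With the mitochondrial ribosomal RNA term it was 0.24 (adjusted p = 0.744), and without untreated replicate 3 and DOX replicate 3 together 0.51 (adjusted p = 0.0859). It was also lost with both groups fitted alone (0.38, adjusted p = 0.0624) and without untreated replicate 1, 2 or 3 in turn (0.37 to 0.43, adjusted p between 0.0615 and 0.0799). Combined against ATRA gave 0.17 ± 0.11, with a 95% interval from −0.063 to 0.41 (edgeR adjusted p = 0.439). Combined against DOX gave 0.23 ± 0.12 (edgeR adjusted p = 0.192), and 0.46 without DOX replicate 2 (adjusted p = 0.00142).

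**Figure D3:**
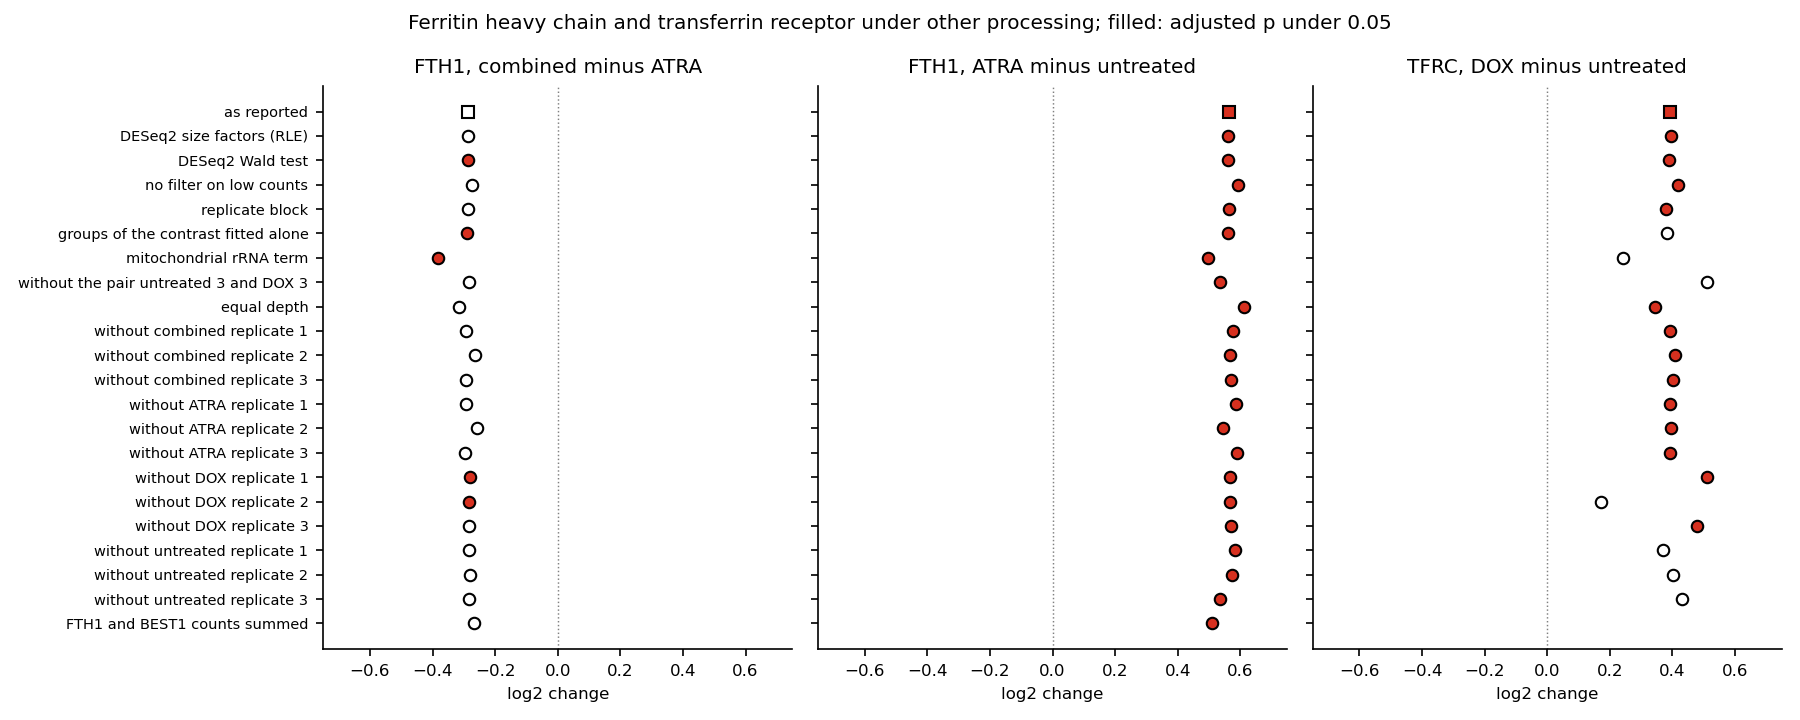
log2 change (horizontal axes) of FTH1 for combined against ATRA (left) and ATRA against untreated (middle) and of TFRC for DOX against untreated (right), as reported (square) and under each alternative (circles), filled where the adjusted p was under 0.05. FTH1 with ATRA is filled throughout, FTH1 in combined against ATRA stays between −0.38 and −0.26, and TFRC with DOX drops to 0.17 without DOX replicate 2.

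The other importers changed little or were scarce. SLC11A2 (chr12:50979401-51028566, minus strand), the divalent metal transporter DMT1 that moves iron out of endosomes, ranged from 16.6 to 19.99 CPM in combined, from 15.9 to 19.5 in ATRA, from 15.98 to 20.4 in DOX and from 17.9 to 21.6 in untreated libraries. All groups overlapped, and its log2 changes lay between −0.17 and 0.064 in the 5 comparisons of groups. SLC11A1 (chr2:218382029-218396894, plus strand), the phagosomal metal transporter NRAMP1 of macrophages, had 1.62, 1.53 and 1.30 CPM in combined, 1.08, 0.637 and 0.578 CPM in ATRA, 1.99, 0.933 and 2.69 CPM in DOX and 1.06, 1.20 and 1.33 CPM in untreated libraries. These rest on 58, 29, 49 and 49 counts summed over the libraries of each group in that order. The combined libraries lay above the ATRA ones, with a log2 change of 0.90 ± 0.40 and a 95% interval from 0.066 to 1.73 (edgeR adjusted p = 0.228). ATRA against untreated gave −0.59 ± 0.41 (edgeR adjusted p = 0.296). SLC40A1, which encodes ferroportin, the iron exporter, had 0 counts in all 12 libraries, which allows up to 0.0204 CPM over all libraries together and from 0.165 to 1.15 CPM in single libraries (3 counts, counting error only).

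Heme oxygenase RNA was scarce and rose severalfold with ATRA. HMOX1 (chr22:35380361-35394214, plus strand) encodes the inducible enzyme that opens the heme ring and frees its iron. It had 3.55, 2.09 and 2.28 CPM in combined (59, 26 and 21 counts), 1.53, 1.91 and 2.12 CPM in ATRA (24, 18 and 22 counts), 1.35, 0.604 and 1.92 CPM in DOX (17, 11 and 5 counts) and 0.773, 0.171 and 0.442 CPM in untreated libraries (8, 2 and 8 counts). The combined and the ATRA libraries lay above all untreated ones, and DOX overlapped the untreated and the ATRA libraries. With ATRA against untreated the log2 change was 2.0 ± 0.47 (3.99-fold, 95% interval 2.03 to 7.83; edgeR quasi-likelihood adjusted p = 0.00268), and combined against untreated 2.55 ± 0.44 (5.84-fold, 3.08 to 11.1; edgeR adjusted p = 0.000142). Both calls held under all 19 alternatives that gave a value.

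Under doxycycline, ATRA raised HMOX1 by 1.34 ± 0.42 (2.53-fold, 1.39 to 4.61; edgeR adjusted p = 0.0274). The call was lost without combined replicate 1 (1.05, adjusted p = 0.137) and without DOX replicate 2 (0.85, adjusted p = 0.237). DOX against untreated gave 1.21 ± 0.52 (edgeR adjusted p = 0.118). Combined against ATRA gave 0.55 ± 0.37, with an interval from −0.21 to 1.31 that spans from a lower level to 2.48-fold higher (edgeR adjusted p = 0.448). Depth limits this gene more than the ferritins, since 18 counts made up the whole untreated group.

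The iron sensors gave 1 call. IREB2 (chr15:78437431-78501456, plus strand), which encodes iron regulatory protein 2, had 119.7, 122 and 122 CPM in combined, 123, 127 and 146 CPM in ATRA, 105, 84.1 and 96.8 CPM in DOX and 121, 117 and 98.7 CPM in untreated libraries. The DOX libraries lay below all combined and ATRA libraries and overlapped the untreated ones. Combined against DOX gave 0.36 ± 0.10 (1.28-fold, 1.11 to 1.48; edgeR adjusted p = 0.0141), lost without DOX replicate 2 (0.26, adjusted p = 0.106). For ATRA against untreated IREB2 gave 0.24 ± 0.10 (edgeR adjusted p = 0.0671), which passed in 5 of 20 alternatives with values from 0.24 to 0.30 (lowest adjusted p = 0.0358). DOX against untreated gave −0.24 ± 0.10 (edgeR adjusted p = 0.101). ACO1 (chr9:32384603-32454769, plus strand), which encodes iron regulatory protein 1, the cytosolic aconitase, ranged from 22.7 to 26.1 CPM in combined, from 19.9 to 29.9 in ATRA, from 19.6 to 24.8 in DOX and from 24.1 to 27.2 in untreated libraries. Its groups overlapped, and its log2 change was −0.014 for combined against ATRA (95% interval −0.27 to 0.25) and −0.039 for ATRA against untreated (−0.30 to 0.22). DOX against untreated gave −0.13 ± 0.13 for ACO1 (edgeR adjusted p = 0.522), and at equal depth −0.60, which passed the threshold (edgeR adjusted p = 0.032).

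**Figure D4:**
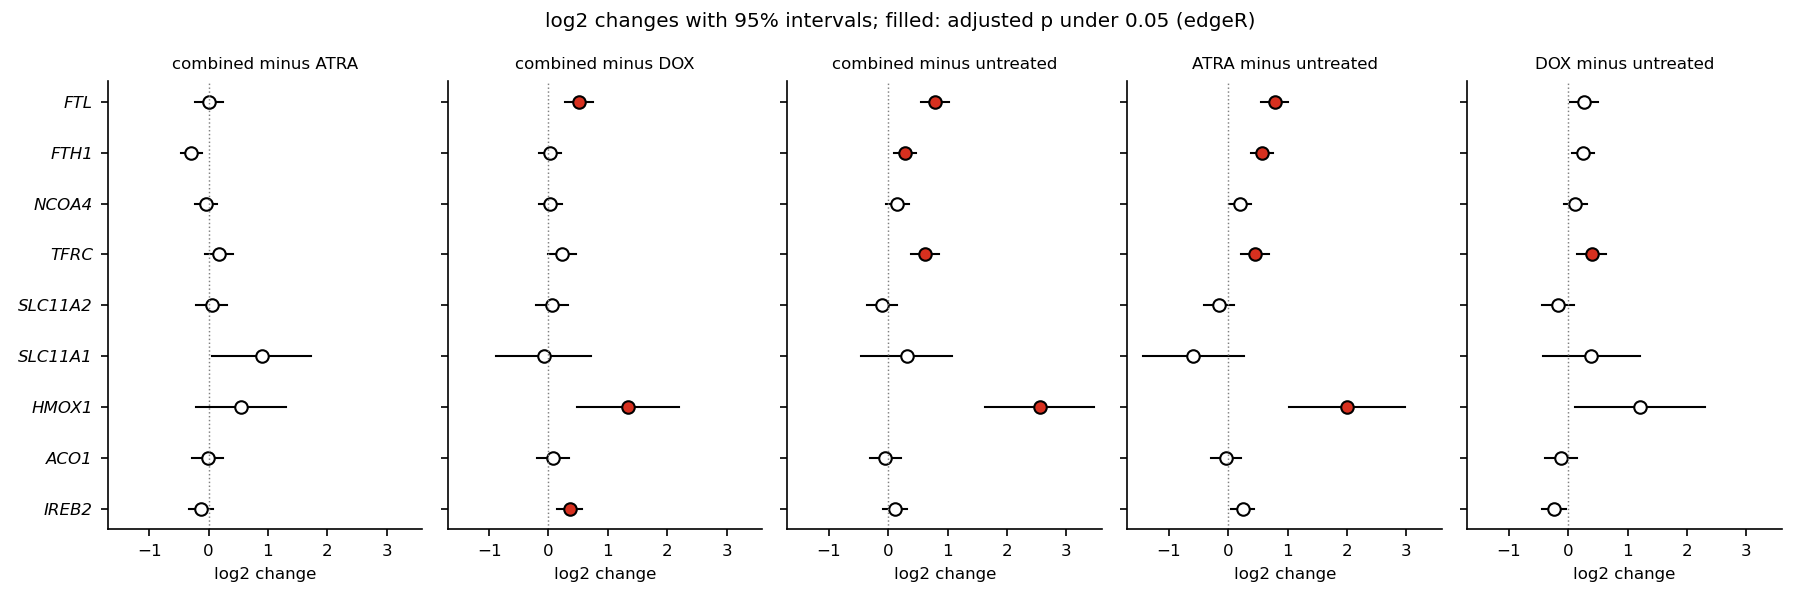
log2 change of the 9 tested genes (points) with 95% intervals (lines) in the 5 comparisons of groups, filled where the edgeR adjusted p was under 0.05. HMOX1 has the largest values, up to 2.55, with wide intervals, and no gene is filled for combined against ATRA.

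Counted over the set, 4 of 9 tested genes were called for ATRA against untreated, all higher (HMOX1, FTL, FTH1 and TFRC), where 28.9% of all tested genes were called and 15.7% were called higher. Their median log2 change was 0.24, against −0.015 over all tested genes, and the libraries of 6 did not overlap, where 45.3% of all tested genes did not. The same 4 were called for combined against untreated, where 38% of all genes were called and 19.6% were called higher (median 0.28 against −0.0095), and 5 did not overlap against 51.2% of all genes. For combined against DOX 3 were called higher (FTL, HMOX1 and IREB2), where 19% of all genes were called and 10.7% called higher (median 0.077 against −0.011). These 3 were also those without overlap, against 30.2% of all genes. DOX against untreated had 1 call (TFRC), where 15.2% of all genes were called and 8.08% called higher (median 0.25 against 0.0054), and TFRC and FTH1 did not overlap, against 30.8% of all genes. The comparisons with ATRA or DOX alone share their untreated or combined libraries, so their counts are not separate evidence.

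Combined against ATRA called 0 of the 9 with edgeR, where 4.43% of all genes were called. At p under 0.05 before adjustment 2 passed (SLC11A1 and FTH1), and DESeq2 called 1 (FTH1). The median of the 9 was 0.0070, against −0.00014 over all tested genes, and 3 did not overlap (FTH1, IREB2 and SLC11A1), where 26.5% of all genes did not. The difference in ATRA effects likewise called 0 of 9 with edgeR, where 0.267% of all genes were called. Only FTH1 passed before adjustment there, and DESeq2 called it.

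Beyond the 10 genes, other iron transport genes split under ATRA. Of 15 listed, 8 were tested, with 4 higher and 1 lower for ATRA against untreated (median 0.20), where 28.9% of all tested genes were called, 15.7% higher (median −0.015). CYBRD1, a ferric reductase, rose by 0.49 ± 0.12 and MCOLN1, a lysosomal cation channel that passes iron, by 0.39 ± 0.10. CP, the plasma ferroxidase ceruloplasmin, rose by 0.52 ± 0.17, a call lost without ATRA replicate 2 (0.34, edgeR adjusted p = 0.165) or untreated replicate 2 (0.39, adjusted p = 0.117) and at equal depth (0.64, adjusted p = 0.0631). MCOLN1 was not called at equal depth (0.069, adjusted p = 0.812). SLC39A8, a zinc importer that also carries iron, was lower at −0.54 ± 0.10, and the largest adjusted p among these was 0.0231 (edgeR). Combined against ATRA had 0 higher and 1 lower (median −0.11), where 4.43% of all genes were called: TFR2, the second transferrin receptor, had 5.83, 4.66 and 3.90 CPM in combined and 6.80, 7.86 and 8.68 CPM in ATRA libraries. Its log2 change was −0.66 ± 0.18 (edgeR adjusted p = 0.0404), lost in 13 of 20 alternatives, at values from −0.75 to −0.54 and adjusted p up to 0.334. For DOX against untreated 1 was called higher and 0 lower (median 0.14), where 15.2% of all genes were called. This was CYBRD1, with 24.1, 28.7 and 27.3 CPM in DOX against 18.5, 22.0 and 18.9 CPM in untreated libraries.

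On the list of iron sensing and chaperone genes, EPAS1 and TMBIM6 were the calls between combined and ATRA cells. Of 10 listed, 8 were tested, with 4 higher and 1 lower for ATRA against untreated (median 0.24), against 28.9% of all genes called, and 0 higher and 2 lower for combined against ATRA (median −0.0022), against 4.43% of all genes. EPAS1, which encodes the hypoxia factor HIF-2α and whose mRNA is known to carry an iron-responsive element, had 84.1, 83.1 and 87.8 CPM in combined, 118, 110 and 126 CPM in ATRA, 48.6, 42.7 and 45.7 CPM in DOX and 44.0, 41.8 and 38.9 CPM in untreated libraries. The combined libraries lay between ATRA and the others without overlap. Its log2 change was 1.51 ± 0.09 for ATRA against untreated (edgeR adjusted p = 1.33e-11) and −0.47 ± 0.08 for combined against ATRA (edgeR adjusted p = 0.00126), both called under all 20 alternatives. HIF1A, the other hypoxia factor, rose with ATRA by 0.45 ± 0.09. TMBIM6, a membrane protein of the endoplasmic reticulum, is on the list by choice, and a part in iron handling was not shown here. It rose by 0.32 ± 0.08 with ATRA and was lower in combined than in ATRA cells at −0.47 ± 0.08 (edgeR adjusted p = 0.00131). It was also lower in DOX, with 263, 287 and 256 CPM against 328, 366 and 364 CPM in untreated libraries. For DOX against untreated the list had 0 higher and 1 lower (median 0.11), where 15.2% of all genes were called. PCBP2, an iron chaperone for ferritin, was lower with ATRA at −0.27 ± 0.08 (edgeR adjusted p = 0.019), lost in 6 of 20 alternatives at values from −0.26 to −0.24.

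Among heme synthesis genes ALAS1, FECH and ALAD rose with ATRA. Of 10 listed, 9 were tested, with 3 higher and 0 lower for ATRA against untreated (median 0.11), a count near the share over all genes, of which 28.9% were called and 15.7% called higher. ALAS1, which makes the first committed intermediate of heme, had 152, 121 and 126 CPM in combined, 134, 136 and 137 CPM in ATRA, 83.0, 80.7 and 87.2 CPM in DOX and 68.2, 66.1 and 63.6 CPM in untreated libraries. The libraries with ATRA lay above all others. Its log2 change for ATRA against untreated was 1.04 ± 0.09 (edgeR adjusted p = 6.67e-09). FECH, the ferrochelatase that inserts iron, rose by 0.60 ± 0.10 and ALAD, the next enzyme after ALAS1, by 0.40 ± 0.08 (lost at equal depth, 0.29, adjusted p = 0.122). Combined against ATRA called none of the 9 (0 higher, 0 lower, median 0.014), where 4.43% of all genes were called. DOX against untreated, where 15.2% of all genes were called and 8.08% called higher, called 3 higher. These were ALAS1 (0.34 ± 0.09), UROS, a porphyrinogen synthase (0.32 ± 0.08), and TMEM14C, a mitochondrial porphyrin carrier (0.36 ± 0.11). All 3 calls were lost with the mitochondrial ribosomal RNA term (0.36, 0.25 and 0.12 in that order), although the ALAS1 value itself did not fall.

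Heme breakdown and transport genes were also called with ATRA. Of 11 listed, 7 were tested, with 4 higher and 1 lower for ATRA against untreated (median 0.64), where 28.9% of all genes were called and 15.7% called higher. POR, the reductase that feeds electrons to heme oxygenase, rose by 0.97 ± 0.09 and had 90.3, 94.0 and 98.3 CPM in combined and 106, 98.1 and 99.9 CPM in ATRA against 44.9, 51.9 and 57.6 CPM in untreated libraries. BLVRB, a biliverdin reductase, rose by 0.68 ± 0.11 and SLC48A1, a lysosomal heme transporter, by 0.64 ± 0.14. FLVCR2, a transporter first described as a heme importer, was lower at −1.03 ± 0.13, and the largest adjusted p among these was 0.00165 (edgeR). Combined against ATRA called none of the 7, where 4.43% of all genes were called. DOX against untreated called 1, where 15.2% of all genes were called and 8.08% called higher. This was HMOX2, the constitutive heme oxygenase, higher by 0.41 ± 0.10 (edgeR adjusted p = 0.0139). That call was lost in 5 of 20 alternatives, among them the mitochondrial ribosomal RNA term (log2 change 0.10) and without DOX replicate 2 (log2 change 0.27).

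Iron-sulfur and mitochondrial iron genes showed few calls with ATRA. Of 22 listed, 21 were tested, with 2 higher and 2 lower for ATRA against untreated (median 0.040), below the 28.9% called over all genes. Combined against ATRA called none of the 21 (median 0.047), where 4.43% of all genes were called. NUBP1, a cytosolic cluster scaffold, rose with ATRA by 0.55 ± 0.10 and SLC25A37, the mitochondrial iron importer mitoferrin 1, was lower at −0.49 ± 0.10, both called under all 20 alternatives. DOX against untreated called 4 higher and 0 lower, where 15.2% of all genes were called and 8.08% called higher. The median was 0.22, against 0.0054 over all tested genes. Among the called were ISCU, the mitochondrial scaffold (0.35 ± 0.10), and CISD1, an outer membrane cluster protein (0.49 ± 0.13). These 4 were all lost with the mitochondrial ribosomal RNA term (0.0093 to 0.36) and without DOX replicate 2. Of 11 NRF2 and BACH1 target or regulator genes, the group to which HMOX1 belongs, 3 were higher and 1 lower for ATRA against untreated (median 0.15), where 28.9% of all genes were called, and 0 higher and 1 lower for combined against ATRA (median 0.027), where 4.43% were. NQO1, a quinone reductase, rose with ATRA by 0.38 ± 0.12 (edgeR adjusted p = 0.0256), lost in 6 of 20 alternatives. Also called higher were SRXN1 (mean 2.05 CPM in ATRA, 0.874 in untreated libraries) and KEAP1 (169 and 139 CPM). SLC7A11, the cystine importer, was lower at −1.36 ± 0.17 (edgeR adjusted p = 1.6e-06). It was also the call for combined against ATRA (mean 15.7 and 25.3 CPM), lost in 10 of 20 alternatives. For DOX against untreated 2 of the 11 were higher and 1 lower (median 0.20), where 15.2% of all genes were called. NQO1 had 27.6, 27.2 and 25.7 CPM in DOX against 20.3, 20.1 and 20.1 CPM in untreated libraries. ME1 was the other gene called higher (mean 10.1 CPM in DOX, 4.92 in untreated), and SLC7A11 was the lower one (41.8 and 64.9 CPM).

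**Figure D5:**
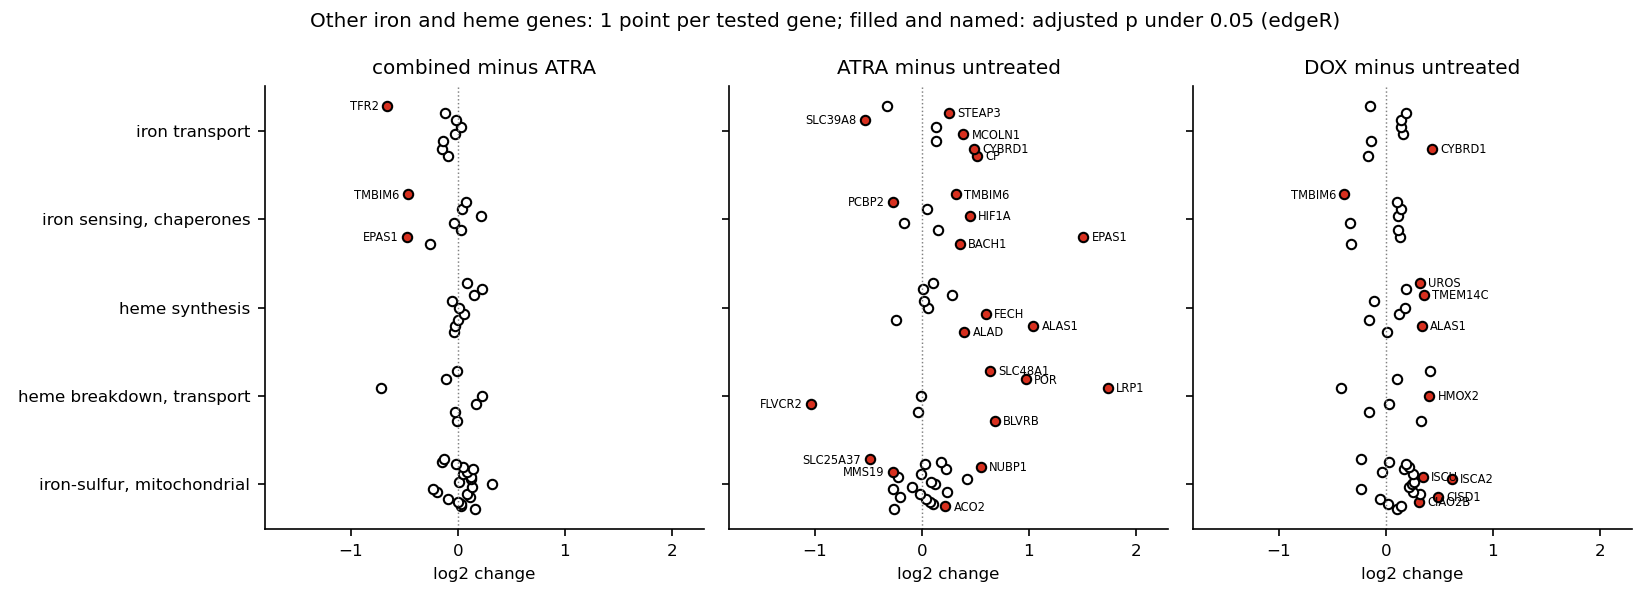
log2 change (horizontal axes) of every tested gene of 5 lists of other iron and heme genes, for combined against ATRA (left), ATRA against untreated (middle) and DOX against untreated (right), filled and named where the edgeR adjusted p was under 0.05. Only TFR2, TMBIM6 and EPAS1 are filled for combined against ATRA, and a part of TMBIM6 in iron handling was not shown here.

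Likeness over the 12 libraries is given as a description only, since the libraries differ in treatment and in depth. The tested genes most like HMOX1 in log2 CPM were SCARF1, a scavenger receptor gene (Pearson r = 0.955), and the antisense genes MAP3K5-AS2 (0.949) and SGMS1-AS1 (0.931). Those most like SLC11A1 were EIF3CL (0.904), a translation factor gene with a near-identical copy, KCNS1 (0.900), a potassium channel subunit, and CYP4V2 (0.892), a fatty acid hydroxylase. KCNS1 averaged 9.44 CPM in combined, 4.37 in ATRA, 11.8 in DOX and 6.94 in untreated cells, with ATRA lowest and DOX highest, the order of SLC11A1. Because KCNS1 was chosen by its likeness in these libraries, the shared order is not separate evidence. EIF3CL averaged 0.788 CPM in combined and 0.798 in untreated cells, so it did not keep the full order.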

How the data were processed

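Total RNA from 12 MOLM14 cultures was read in paired ends (Illumina NovaSeq), per the labels' protocols. Values as deposited are raw counts. GRCh38, STAR, HTSeq and FastQC are named in the submitters' processing notes; versions, annotation and strand setting are not given in the sources used here, so reads of overlapping genes cannot be told apart. The members and gene lists were chosen with earlier results of these data known. The list genes named are up to 4 called genes per list and comparison with the smallest adjusted p.

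From the counts, edgeR 4.0.16 (R 4.3.3) kept 16104 genes by filterByExpr, scaled by TMM and fitted 1 quasi-likelihood model of the 4 group means. Benjamini-Hochberg adjustment covered all genes tested, and 0.05 was the threshold. Replicates had a biological coefficient of variation of 9.54%. Each p-value sets a difference between groups against the spread between these replicates, estimated over the 4 groups together. DESeq2 1.42.0 was an alternative. The fit was tested on simulated data. No replicates were duplicates: chi-square per degree of freedom ran from 2.42 to 25.4. Coordinates and transcript sequences come from GENCODE release 29, which held 58312 of 61487 identifiers; length is the union of exons. Iron-responsive elements were searched by letters alone.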

Additional observations from a re-analysis of the deposited data

Results flagged for a closer look

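The effect of ATRA on EPAS1 differed between cells with and without doxycycline. With doxycycline minus without it, the difference was −0.61 ± 0.12 on the log2 scale (edgeR quasi-likelihood interaction test, Benjamini-Hochberg adjusted p = 0.0304), from an ATRA effect of 0.90 ± 0.09 under doxycycline and of 1.51 ± 0.09 without it. The direction was the same in all 19 alternatives, at −0.67 to −0.54, and 9 of them lost the call, with adjusted p between 0.0518 and 0.197. Among 8 tested genes of the sensing and chaperone list it was the 1 call for this difference, where 0.267% of all tested genes were called.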

How the results depend on the processing

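Depth limits HMOX1, SLC11A1 and SLC40A1, which had the fewest counts, and the interaction, which needs all groups. No pairing of the libraries by replicate number was detected, although 3 libraries per group cannot exclude one. Over 18 same-numbered pairs the correlation of deviations ran from −0.244 to 0.267, and over 36 other pairs from −0.248 to 0.334. With the replicate block the genes called were 729 for combined against ATRA, 3052 for combined against DOX, 6083 for combined against untreated, 4677 for ATRA, 2349 for DOX and 54 for the interaction, and the block changed no call of the 9 genes. Of the values of these 9 genes under other settings, 1004 kept direction and side of the threshold, 13 lost the call, 20 gained it and 24 changed sign; no called value changed sign, and the cause of these changes was not tested. HMOX1 and SLC11A1 gave no value in 1 to 2 settings.

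Genes called were, in place of 713 for combined against ATRA, 364 at equal depth and 264 to 1028 leaving out 1 library; in place of 3054 for combined against DOX, 1860 at equal depth. In place of 6123 for combined against untreated they were 3363 with the mitochondrial ribosomal RNA term and 3392 at equal depth, and in place of 4652 for ATRA, 2676 at equal depth. In place of 2446 for DOX they were 1573 with the groups fitted alone, 77 with the term, 169 without untreated replicate 3 and DOX replicate 3, 1124 at equal depth and 659 to 4326 leaving out 1 library. In place of 43 for the interaction they were 120 with DESeq2, 189 without a low-count filter, 9 without that pair, 17 at equal depth and 10 to 747 leaving out 1 library.

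Of the 9 genes, combined against ATRA called 1 with DESeq2, with the groups fitted alone and with the term, and 0 to 1 leaving out 1 library. DOX called 3 with DESeq2, 0 with the groups fitted alone, 0 with the term, 0 without that pair, 2 at equal depth and 0 to 4 leaving out 1 library. The interaction called 1 with DESeq2 and 0 to 1 leaving out 1 library.

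Values that changed sign were all uncalled. With the term, FTL was −0.080 for combined against ATRA, SLC11A2 0.062 for combined against untreated and 0.043 for DOX, and NCOA4 −0.034 for DOX. At equal depth FTL was −0.027 and SLC11A2 −0.014 for combined against ATRA, and SLC11A2 −0.039 for combined against DOX. Without the pair SLC11A1 was 0.080 for combined against DOX. Leaving out 1 library, combined against ATRA ranged from −0.045 to 0.089 for FTL, −0.012 to 0.13 for SLC11A2 and −0.13 to 0.14 for ACO1. Combined against DOX ranged from −0.067 to 0.14 for FTH1, −0.53 to 0.21 for SLC11A1 and −0.039 to 0.13 for SLC11A2. ACO1 ranged from −0.092 to 0.020 for combined against untreated and −0.17 to 0.087 for ATRA, and the interaction from −0.33 to 0.0074 for TFRC and −0.0024 to 0.27 for ACO1.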
